A study of Mus musculus with 14 samples.

Results

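The NR4A orphan nuclear receptors are encoded in the mouse by 3 genes, Nr4a1 (Nur77), Nr4a2 (Nurr1) and Nr4a3 (Nor1). They were taken by symbol from the 22836 genes of the files, and all 3 passed the filter on low values. Their RNA was followed in 14 libraries, 1 per group. The brown line, preadipocytes from interscapular brown fat of newborn pups with floxed Pparg alleles and immortalized with SV40T, gave 6 libraries: confluent cells before induction (0h) and cells at 1h, at 2h, at 4h, on day 2 and on day 7 afterwards. 3T3-L1, an immortalized white preadipocyte line, was sampled at the same 6 times. Whole brown adipose tissue came from adults and from embryos, with no age given. All libraries carry the strain label C57BL/6J, and no label names a Cre recombinase. Induction used 0.02 µM insulin, 1 nM T3 (a thyroid hormone), 0.5 mM IBMX (a phosphodiesterase inhibitor that raises cAMP), 1 µM dexamethasone (a glucocorticoid) and 0.125 mM indomethacin. The labels print this text and the origin of the brown line for every library, 3T3-L1 and tissues included. The culture conditions and the strain of 3T3-L1 are therefore uncertain. The brown day 2 and day 7 libraries are marked as duplicates of samples in another series.

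NR4A proteins are nuclear receptors whose ligand pocket is closed by bulky side chains, so that their activity is known to depend largely on how much protein is made. Their genes are immediate early genes, switched on briefly by cAMP, calcium and growth factors without new protein synthesis, and cAMP acts through CREB bound to CRE sites in their promoters. The proteins bind the NBRE element as monomers, and Nr4a1 and Nr4a2 also pair with RXR. In brown fat, cold and adrenergic signals are known to raise their RNA.

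The promoters are shown because the induction cocktail holds a cAMP-raising drug and the CRE is an element through which cAMP is known to reach these genes. The agents of the cocktail were given together, so the part of each in the changes below cannot be told apart. Sequences are RefSeq's, GRCm38.p6, printed up to the first base of the GENCODE transcript. Capitals mark the CRE core TGACG, on either strand, or TGCGTCA, a variant of the CRE that contains this core and was looked for after the windows had been read. The windows lie upstream of Nr4a1 (chr15:101266596-101266845, plus strand), of Nr4a2 (chr2:57124004-57124253, minus strand) and of Nr4a3 (chr4:48045055-48045152, plus strand). The Nr4a2 window belongs to the transcript kept for its levels. Another listed Nr4a2 transcript starts elsewhere, at chr2:57115038, and the bases before that start are not shown.
Nr4a1: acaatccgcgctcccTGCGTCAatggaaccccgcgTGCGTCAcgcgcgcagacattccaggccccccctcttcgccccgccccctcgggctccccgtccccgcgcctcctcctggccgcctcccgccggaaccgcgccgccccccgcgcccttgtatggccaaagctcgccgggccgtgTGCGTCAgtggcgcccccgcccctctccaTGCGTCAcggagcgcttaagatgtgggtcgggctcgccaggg
Nr4a2: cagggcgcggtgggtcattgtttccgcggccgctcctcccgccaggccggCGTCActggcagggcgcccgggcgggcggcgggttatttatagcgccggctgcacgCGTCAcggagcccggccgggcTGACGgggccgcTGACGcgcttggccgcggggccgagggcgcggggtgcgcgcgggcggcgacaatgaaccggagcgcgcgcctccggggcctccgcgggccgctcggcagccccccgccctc
Nr4a3: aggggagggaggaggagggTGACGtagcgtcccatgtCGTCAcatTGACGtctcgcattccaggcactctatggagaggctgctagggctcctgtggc
Each of the 3 RefSeq windows of 250 bases held 4 CRE cores. In Nr4a3, 152 bases of the window lie past the GENCODE start, so 98 bases with 3 of the cores are shown. Of 32851 such windows, 17.8% held a core and 45 windows (0.137%) held 4 or more, the 3 NR4A windows among them. In Nr4a1 the 4 cores lie inside 4 copies of TGCGTCA, which 1.75% of windows held at all. The 1 window that held it 3 times or more is that of Nr4a1 itself. The variant was looked for after this window had been read, so that count cannot show how rare such a window is. The full CRE, TGACGTCA, is in 1.55% of windows, the NBRE, AAAGGTCA, in 1.34% and the palindromic glucocorticoid response element in 0.00913%, and none of these is in the 3 windows. These are matches of letters on both strands and not measured sites. The bases shown are 74.4% G or C for Nr4a1, 80% for Nr4a2 and 61.2% for Nr4a3. The core and TGCGTCA each hold a CG, and the shares over all windows were not matched for base content.

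On GRCm38 with GENCODE annotation, Nr4a1 is at chr15:101266846-101274795 with 7 exons, Nr4a2 at chr2:57106830-57124003 with 8 and Nr4a3 at chr4:48045153-48086445 with 8, and no annotated gene overlaps them. The files list 1 transcript each of Nr4a1 (NM_010444) and Nr4a3 (NM_015743). The Nr4a3 entry has 1884 bases, which equals its coding length in GENCODE, so its values cover coding sequence alone, while the transcript there has 5720 bases. Of 2 Nr4a2 transcripts, NM_001139509 was kept. Its values nearly equal those of NM_013613, with 90 and 91 reads in adult tissue. Isoforms were thus not separated, and which start was in use is not known. Levels are RPKM, read counts scaled to transcript length and to the size of the library, and can be set side by side between genes as far as these lengths hold.

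Depth was 39.5 to 80.9 M reads (M, mega) per culture library, 5.35 M in adult tissue and 18.8 M in embryo tissue. In both lines the late files (day 2 and day 7) have another header style than the early ones, so a possible batch and late time cannot be told apart. Adipocyte markers summed to 52.2, 5101 and 5197 RPKM at 0h, day 2 and day 7 in the brown line and to 336, 1380 and 16668 RPKM in 3T3-L1. Brown adipocyte markers summed to 69.0 RPKM at day 7 in the brown line, against 18.2 RPKM in 3T3-L1. Ucp1, the defining uncoupling protein, was at 1.07 RPKM there in the brown line and listed at 0 in 3T3-L1. The brown label of these cultures is taken from their origin and not from these levels. In bulk RNA, a change in the number of cells that express a gene and a change in RNA per cell cannot be told apart.

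Nr4a1, the most abundant of the 3 genes in every library, peaked at 1h in both lines. In the brown line it stood at 23.95, 566, 418, 72.8, 2.86 and 8.74 RPKM over the 6 times. In 3T3-L1 it stood at 49.9, 959.7, 422, 195, 42.5 and 17.4 RPKM. At 1h it ranked 26th of all genes in the brown line and 13th in 3T3-L1. The peak was 23.6 times the 0h level in the brown line (95% interval 22.9 to 24.4) and 19.2 times in 3T3-L1 (18.8 to 19.7). Intervals here and below come from read numbers and cover counting error only. At 2h the level was 73.8% of the peak in the brown line and 44.0% in 3T3-L1, and at 4h it was 12.9% and 20.3%. Most of the fall in the brown line thus lay between 2h and 4h, where 17.4% of the 2h level was left, while in 3T3-L1 the hour before had already taken more than it left. The lines parted most at day 2, where Nr4a1 was at 11.9% of its 0h level in the brown line and at 85.3% in 3T3-L1. By day 7 it was at 36.5% and 35.0%. The day 7 level was 3.06 times that of day 2 in the brown line (2.77 to 3.38) and 0.41 times in 3T3-L1 (0.389 to 0.432).

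Nr4a2, known for its role in dopamine neurons, had a lower and flatter peak. In the brown line it stood at 4.66, 33.2, 55.4, 15.8, 1.67 and 1.53 RPKM from 0h to day 7. In 3T3-L1 it stood at 3.01, 37.8, 35.8, 16.4, 0.87 and 0.77 RPKM. The highest level came at 2h in the brown line, 11.9 times 0h (11.2 to 12.7), and at 1h in 3T3-L1, 12.6 times 0h (11.4 to 13.8). In 3T3-L1 the levels at 1h and 2h lay close together, and scaling the libraries by their median of ratios put the peak at 2h. At 4h the brown line retained 28.5% of its peak and 3T3-L1 43.4%, the largest share among the 3 genes in each line. Both lines ended below their start, at 32.8% of 0h in the brown line and 25.6% in 3T3-L1 at day 7.

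Nr4a3 went furthest from its 0h level and peaked later than Nr4a1. In the brown line it stood at 0.60, 18.5, 47.3, 8.90, 0.37 and 0.05 RPKM from 0h to day 7. In 3T3-L1 it stood at 1.14, 45.8, 98.3, 17.9, 0.42 and 0.10 RPKM. The 2h peak was 78.8 times the 0h level in the brown line (63.9 to 99.5) and 86.2 times in 3T3-L1 (71.4 to 104.8). At 1h it had reached 39.0% of that peak in the brown line and 46.6% in 3T3-L1. From 2h to 4h it lost 1.20 log2 RPKM units per hour in the brown line and 1.23 in 3T3-L1. Over the same hours the loss was 1.26 units per hour in the brown line and 0.56 in 3T3-L1 for Nr4a1, and 0.90 and 0.56 for Nr4a2. The loss of Nr4a3 was thus the largest of the 3 in 3T3-L1 and lay just under that of Nr4a1 in the brown line. At day 7 Nr4a3 was at 8.33% of its 0h level in the brown line and 8.77% in 3T3-L1, from about 6 and 9 recovered reads.

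**Figure D1:**
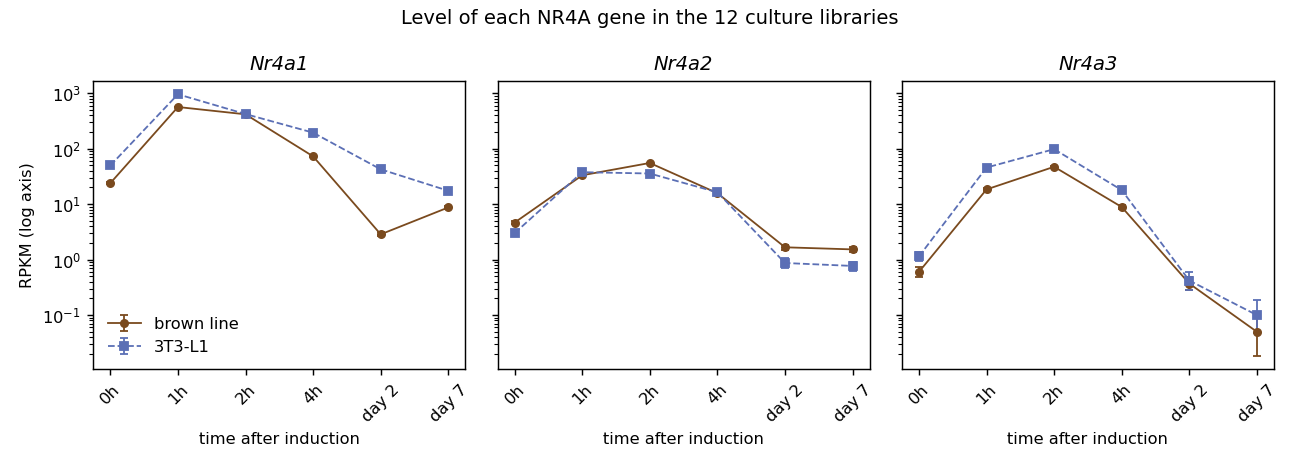
Level of Nr4a1, Nr4a2 and Nr4a3 in RPKM, on a log axis, against time in the brown line (circles, solid) and 3T3-L1 (squares, dashed), 1 library per point with 95% counting intervals, many smaller than the symbol. Nr4a1 peaks at 1h in both lines and Nr4a3 at 2h in both, and the lines part most for Nr4a1 at day 2, at 2.86 RPKM in the brown line and 42.5 RPKM in 3T3-L1.

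The make-up of the family changed over time. Nr4a1 held 82.0% of the summed RPKM of the 3 genes in the brown line at 0h and 91.6% at 1h, and 92.3% and 92.0% in 3T3-L1. At 2h, with Nr4a3 at its peak, the Nr4a1 share was 80.3% in the brown line and 75.9% in 3T3-L1, and the Nr4a3 share was 9.09% and 17.7%. At day 2, Nr4a1 held 58.4% in the brown line and 97.1% in 3T3-L1, and Nr4a2 held 34.1% and 1.99%. In tissue the Nr4a1 share was 50.3% in adults and 70.5% in embryos, with Nr4a2 at 39.8% and 28.1%.

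**Figure D2:**
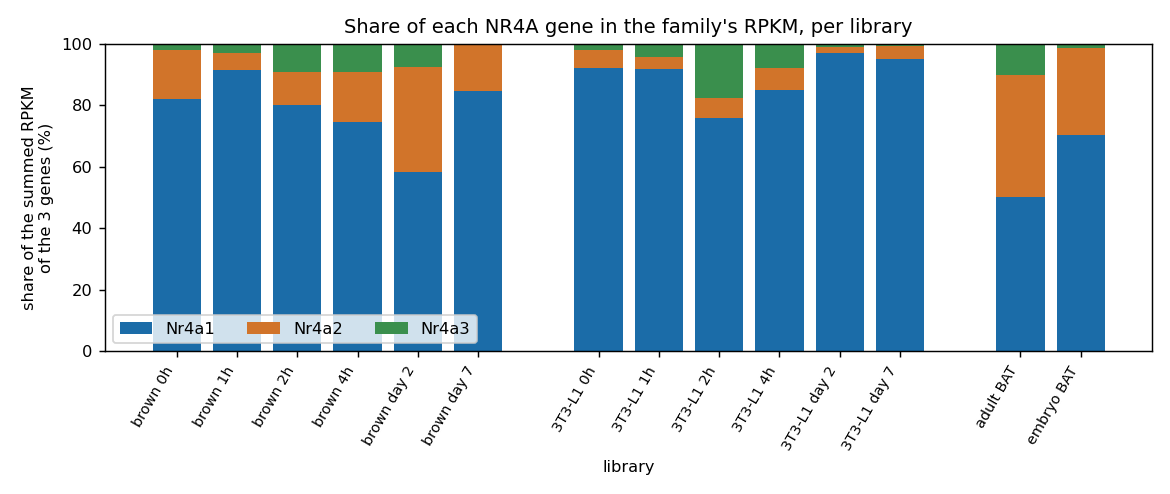
Share of each gene in the summed RPKM of Nr4a1, Nr4a2 and Nr4a3 (percent, stacked bars starting at 0), 1 bar per library, brown line, 3T3-L1 and tissues from left to right. Nr4a1 holds most of the sum in all 14 libraries, from 50.3% in adult tissue to 97.1% in 3T3-L1 at day 2.

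Over all 14 libraries, the culture libraries of 1h, 2h and 4h took the 6 highest places for each of the 3 genes. For Nr4a1, 3 of the 13 neighbours in that order had overlapping counting intervals, among them brown and 3T3-L1 at 2h and adult and embryo tissue. For Nr4a2 it was 4 of 13, including adult tissue (5.56 RPKM) beside the brown line at 0h (4.66 RPKM). For Nr4a3 it was 8 of 13, and the 6 lowest libraries, from brown at 0h down to brown at day 7, each overlapped the next. Libraries were normalised one by one, so levels across cultures and tissues carry any difference between their preparations.

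The rises after induction were tested with limma on log2(RPKM + 1) in a model of time plus cell line over the 12 culture libraries. The lines are the sole replicates at each time (n = 2 lines), and the residual is how far their changes differ. At 1h, 2 of the 3 genes passed, with 0.0402% of 12428 genes called higher at that time. Nr4a3 rose by 4.03 ± 0.32 (log2 ± SE) and Nr4a2 by 2.94 ± 0.23, each at a limma adjusted p of 0.00966. At 2h the same pair passed, against 0.507% of all genes called higher and 0.909% lower. Nr4a3 rose by 5.23 ± 0.32 (limma adjusted p = 0.00423) and Nr4a2 by 3.26 ± 0.23 (adjusted p = 0.00514). At 4h Nr4a3 was still up by 2.89 ± 0.32 (limma adjusted p = 0.0135) and Nr4a2 by 1.84 ± 0.23 (adjusted p = 0.0160), with 0.933% of all genes called higher. Nr4a1 did not pass at any of these times, although its fitted differences were 4.37 at 1h, 3.56 at 2h and 1.76 at 4h. Its SE was 0.69, and its adjusted p in limma was 0.198, 0.0521 and 0.195. The median of all genes tested was -0.07 at 1h, -0.17 at 2h and -0.13 at 4h, so changes relative to it are larger by those amounts. Scaling the libraries by their median of ratios turned the split of all genes at 2h to 67 higher and 32 lower, against 63 and 113 as deposited, and the calls of the 3 NR4A genes at 1h, 2h and 4h did not change under it.

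Calls of all 3 genes depended on single libraries. Without the brown day 2 library, Nr4a1 passed in limma at 1h (adjusted p = 0.0175), 2h (0.0105) and 4h (0.0371), with the same fitted differences. Without 3T3-L1 day 2 the limma values were 0.0179, 0.0106 and 0.0373, and at 2h it also passed without 3T3-L1 day 7 (0.0465) or brown day 7 (0.0464). In the 0h to 4h libraries alone it passed at all 3 times (limma adjusted p = 0.0119, 0.00647 and 0.0133), in a fit that called 0.193%, 2.88% and 7% of all genes higher. The 1h calls ended without 3T3-L1 0h (limma adjusted p = 0.131 for Nr4a2 and 0.131 for Nr4a3), 3T3-L1 1h (0.131 and 0.136) or brown 0h (0.0968 for both). The 2h calls ended without 3T3-L1 0h (limma adjusted p = 0.0693 for both) or brown 2h (0.0649 for Nr4a2 and 0.0579 for Nr4a3). At 4h they ended without 3T3-L1 0h (limma adjusted p = 0.226 and 0.204), 3T3-L1 4h (0.189 and 0.179), brown 0h (0.115 and 0.108) or brown 4h (0.0571 for both). Over the 12 fits that leave out 1 library, the 1h difference ranged over 2.64 to 3.23 for Nr4a2 and 3.65 to 4.41 for Nr4a3. The 1h calls of both genes also ended with no filter on low values (limma adjusted p = 0.0833 for Nr4a2 and 0.0852 for Nr4a3) or no cell line term (0.152 and 0.230), and a fit with no cell line term ended the 4h calls too (0.138 for each). With 1 library of a time left out, the remaining line is assumed to vary as the pair does elsewhere.

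Within each line, all 3 genes were at least 2-fold above 0h, with an RPKM of at least 2, at 1h, 2h and 4h. The same rule counted 0.982%, 2.5% and 3.33% of genes as higher in the brown line at these times and 1.49%, 3.34% and 4.75% in 3T3-L1. By log2(RPKM + 1), Nr4a1 had the largest rise of all genes at this level at 1h in the brown line, and Nr4a3 had the largest at 1h and at 2h in 3T3-L1.

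**Figure D3:**
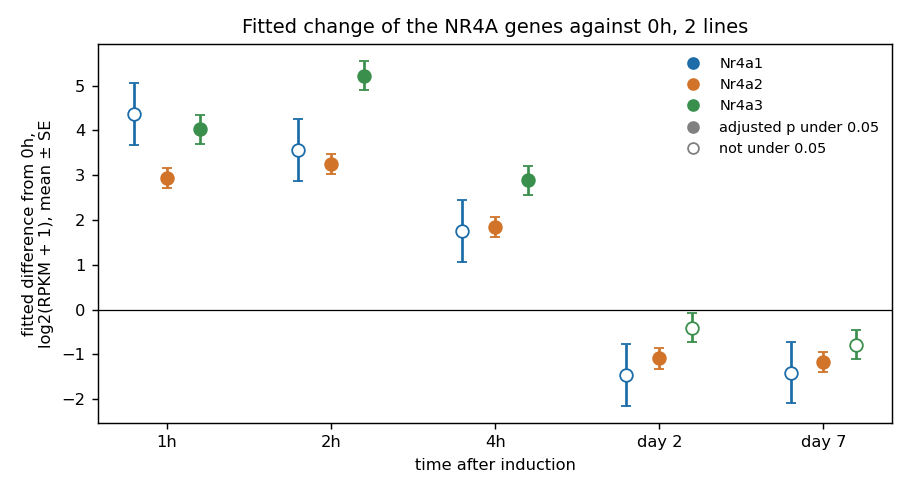
Fitted difference from 0h in log2(RPKM + 1), mean ± SE from limma over 12 libraries of 2 lines, for Nr4a1, Nr4a2 and Nr4a3 at each time, with filled symbols for an adjusted p under 0.05. Nr4a2 and Nr4a3 are filled at 1h, 2h and 4h, while Nr4a1, with an SE of 0.69, has open symbols throughout.

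All 3 genes fell from 4h to day 2, in a step where 8.18% of all genes were called lower. In limma, Nr4a1 fell by 3.21 ± 0.69 (adjusted p = 0.0205), Nr4a2 by 2.94 ± 0.23 (adjusted p = 0.000618) and Nr4a3 by 3.30 ± 0.32 (adjusted p = 0.00126). The fall of Nr4a1 no longer passed without 3T3-L1 4h (limma adjusted p = 0.138) or brown 4h (0.0905), while those of Nr4a2 and Nr4a3 passed without any single library. Between 2h and 4h the fitted differences were -1.81, -1.41 and -2.34 for Nr4a1, Nr4a2 and Nr4a3, and none passed (limma adjusted p = 0.328, 0.110 and 0.110). In that step, and between 1h and 2h, limma called 0 genes in all, 1556 and 1127 having an unadjusted p under 0.05, and edgeR on recovered reads called 0 in both. In the 0h to 4h libraries alone, where limma called 2.08% of all genes lower from 2h to 4h, all 3 passed (adjusted p = 0.0327, 0.0289 and 0.0283).

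Nr4a2 ended below its level in confluent preadipocytes. The fall at day 2 was 1.09 ± 0.23 (log2 difference -1.09, limma adjusted p = 0.0172), where 11.5% of all genes were called lower. At day 7 Nr4a2 fell by 1.17 ± 0.23 (limma adjusted p = 0.00562), where 25.8% were called lower. The day 2 call ended without 3T3-L1 0h (limma adjusted p = 0.0824), 3T3-L1 day 2 (0.0696) or brown 0h (0.126), and the day 7 call without brown 0h (0.0502). Nr4a3 differed from 0h by -0.41 at day 2 and -0.78 at day 7 (limma adjusted p = 0.412 and 0.0882). Adding 1 to an RPKM below 1 shrinks this difference. With a pseudocount of 0.1 it was -2.43 at day 7 (limma adjusted p = 0.000866), and edgeR on recovered reads gave -3.34 (adjusted p = 0.000521). Without brown day 7 it was -1.12 (limma adjusted p = 0.0473). Nr4a1 differed by -1.46 at day 2 and -1.41 at day 7 and did not pass (limma adjusted p = 0.185 and 0.138). It passed at day 2 without 3T3-L1 day 2, at -2.79 (limma adjusted p = 0.00658), and at day 7 without either day 2 library (0.0101 for each). Cell type markers moved with these late changes. At day 7, where 14.9% of all genes were called higher, 9 of 9 adipocyte markers rose. Of 6 preadipocyte and fibroblast markers 4 fell, with a median log2 difference of -1.71 over the 6. Their part in the NR4A changes was not tested.

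Between the lines, Nr4a1 and Nr4a3 were lower in the brown line at 6 of 6 times, and Nr4a2 was higher at 4 of 6. The counting intervals of the lines overlapped for Nr4a1 at 2h, for Nr4a2 at 4h and for Nr4a3 at day 2 and day 7. The brown level of Nr4a1 was 0.0672 to 0.990 times that of 3T3-L1, with the low end at day 2 and the high end at 2h. For Nr4a3 the ratio was 0.403 to 0.881, and for Nr4a2 0.880 to 1.99. Over all times Nr4a1 was lower in the brown line by a log2 difference of -1.27 ± 0.40 (limma adjusted p = 0.0300) and Nr4a3 by -0.63 ± 0.19 (adjusted p = 0.0245). Nr4a2 differed by 0.32 ± 0.13 and did not pass (limma adjusted p = 0.0759). This background is wide, since 18.6% of all genes were called lower and 31.3% higher in the brown line (3079 lower and 3133 higher after median-of-ratios scaling, against 2314 and 3889 as deposited). The call of Nr4a1 ended without 3T3-L1 0h (limma adjusted p = 0.0612), 1h (0.0510) or 4h (0.0751), or without brown 0h (0.0614), 1h (0.0511) or 4h (0.0753). Without brown day 2 or 3T3-L1 day 2 its difference was -0.83. The call of Nr4a3 ended without 3T3-L1 1h (limma adjusted p = 0.0701), 2h (0.0764) or 4h (0.0734), or without brown 1h (0.0692), 2h (0.0754) or 4h (0.0729). Nr4a2 passed without 3T3-L1 1h (limma adjusted p = 0.0373) or brown 1h (0.0368). Each line is a single line, so line, strain, origin and culture history cannot be told apart.

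Other immediate early genes, such as Fos, Egr1 and Dusp1, were set beside this course. Of 22 listed, 21 were tested, and they peaked at 1h in 17 cases in the brown line and 15 in 3T3-L1. Their median fitted difference was 2.15 at 1h and 1.01 at 2h, against -0.07 and -0.17 for all genes. At 1h 0 of the 21 passed limma, which called 5 of all 12428 genes. By edgeR on recovered reads 0 passed, with 4 of all 12318 genes called. An unadjusted limma p under 0.05 was reached by 14 of the 21, and by 321 of all 12428 genes. At 2h, where 0.507% of all genes were called higher and 0.909% lower, 1 of the 21 passed limma. That was Atf3, a stress-induced bZIP factor, which rose by 1.84 ± 0.25 (limma adjusted p = 0.0291). This call ended under 12 of 19 alternatives, edgeR among them (2.50, adjusted p = 0.236). At 4h the NR4A genes were still at least 2-fold above 0h in both lines, 3 of 3. Of the 21 others it was 0 in the brown line and 6 in 3T3-L1, namely Dusp1, Fosl1, Fosl2, Ier3, Jun and Myc. No minimum RPKM was set for these counts. With at least 2 RPKM also required, 0 of 20 others were higher in the brown line and 6 of 19 in 3T3-L1. That rule counted 3.33% and 4.75% of all genes as higher. The share of the early peak left at 4h had a median of 22.4% in the brown line and 23.4% in 3T3-L1, against 18.8% and 20.3% for the NR4A genes. These are descriptions of lists, and their difference was not tested.

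**Figure D4:**
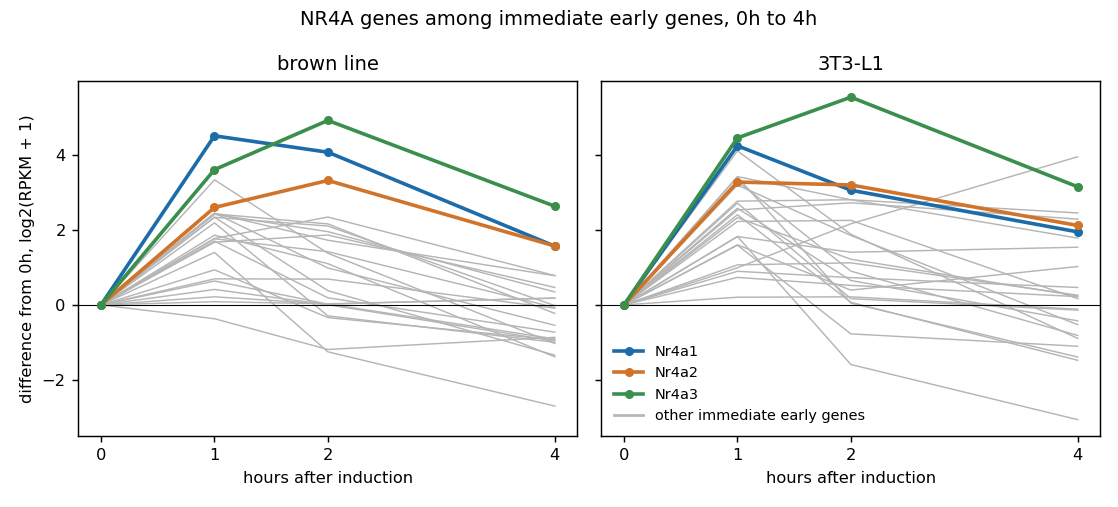
Difference from 0h in log2(RPKM + 1) at 1h, 2h and 4h in the brown line (left) and 3T3-L1 (right), 1 library per point, for the NR4A genes (coloured) and 21 other immediate early genes (grey). At 4h the NR4A genes sit at 1.56 to 2.63 in the brown line, above all grey lines, and at 1.95 to 3.15 in 3T3-L1, among the highest of them.

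Among 19 components of the route from cAMP to CREB, which leads to the NR4A promoters, limma called Crem higher and Ep300 lower at 2h, where 0.507% of all genes were called higher and 0.909% lower. At 4h, with 0.933% called higher, Crem and Sik2 rose. At 1h, with 0.0402% of all genes called higher, 0 passed. There 1 had an unadjusted limma p under 0.05, against 321 of all 12428 genes. By edgeR on recovered reads, 0 were called at 1h and at 2h, and Crem and Sik2 at 4h. Of all 12318 genes, edgeR called 4, 46 and 136 higher at 1h, 2h and 4h and 0, 29 and 102 lower. Crem, whose short form is an inducible repressor of CRE-driven genes, was at 7.59 RPKM at 2h against 1.98 RPKM at 0h in the brown line, and at 5.15 against 1.48 RPKM in 3T3-L1 (1.42 ± 0.26, limma adjusted p = 0.0477). Ep300, a histone acetyltransferase that CREB recruits, fell by 0.79 ± 0.14 (limma adjusted p = 0.0477), to 12.8 RPKM at 2h against 22.6 RPKM at 0h in the brown line and 6.57 against 12.2 RPKM in 3T3-L1. At 2h the call of Crem ended under 14 of 19 alternatives and that of Ep300 under 15, among them scaling by the median of ratios for Ep300 (-0.57, limma adjusted p = 0.102). At 4h Crem was at 9.79 RPKM in the brown line and 4.94 RPKM in 3T3-L1 (1.56, limma adjusted p = 0.0301; edgeR 2.20, adjusted p = 0.0320), and its limma call ended under 10 of 19 alternatives. Sik2, a kinase that restrains CREB coactivators, was at 21.8 RPKM at 4h against 8.62 RPKM at 0h in the brown line, and at 23.6 against 11.4 RPKM in 3T3-L1. It rose by 1.11 (limma adjusted p = 0.0459; edgeR 1.35, adjusted p = 0.0363), a limma call that ended under 11 of 19 alternatives. The median of the 19 at 2h was -0.14, against -0.17 for all genes.

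Of 15 cofactors and partners of NR4A proteins, 0 passed limma at 1h, 2h or 4h, and edgeR called 0 at each. Of all 12428 genes, limma called 5, 63 and 116 higher at these times and 0, 113 and 181 lower. Of all 12318 genes, edgeR called 4, 46 and 136 higher and 0, 29 and 102 lower. At these times 0, 6 and 5 of the 15 had an unadjusted limma p under 0.05, against 321, 2327 and 2677 of all 12428 genes. At day 2, 4 rose and 1 fell, with 6.18% of all genes called higher and 11.5% lower. At day 7, 5 rose and 5 fell, with 14.9% of all genes called higher and 25.8% lower. Rxra, the RXR partner of Nr4a1 and Nr4a2, rose by 1.70 ± 0.15 at day 2 (limma adjusted p = 0.000877; 0.291 with no cell line term), at 67.9 RPKM against 22.2 RPKM at 0h in the brown line and 183 against 51.0 RPKM in 3T3-L1. At 2h, when NR4A RNA was high, it was at 14.4 RPKM in the brown line and 32.6 RPKM in 3T3-L1 and did not pass (-0.62, limma adjusted p = 0.0880). Rxrb, Ncoa2 and Ncoa3, a second RXR and a pair of coactivators, differed by -0.70, -0.57 and -0.64 at 2h and did not pass (limma adjusted p = 0.0739, 0.173 and 0.147). In the 0h to 4h libraries alone, limma called 14% of all genes lower at 2h and 2.88% higher. There these 4, named for the largest changes of their list, passed as lower (limma adjusted p = 0.0222 for Rxra, 0.0272 for Rxrb, 0.0204 for Ncoa3 and just under 0.05 for Ncoa2). Scaling the 12 culture libraries by their median of ratios gave -0.38, -0.48, -0.36 and -0.43 for Rxra, Rxrb, Ncoa2 and Ncoa3. None passed under it (limma adjusted p = 0.299, 0.162, 0.399 and 0.356). By edgeR on recovered reads none passed either (adjusted p = 0.305, 0.163, 0.365 and 0.323).

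Of 20 genes reported as NR4A targets in other settings, 9 were tested in culture. At 1h, 2h and 4h 0 passed limma, and edgeR called 0. Of all 12428 genes, limma called 5, 63 and 116 higher at these times and 0, 113 and 181 lower. Of all 12318 genes, edgeR called 4, 46 and 136 higher and 0, 29 and 102 lower. At these times 0, 0 and 1 of the 9 had an unadjusted limma p under 0.05, against 321, 2327 and 2677 of all 12428 genes. At day 2, 2 rose and 3 fell, against 6.18% and 11.5% of all genes. At day 7, 2 rose and 4 fell, against 14.9% and 25.8%. Eno3, a muscle enolase, fell by 2.29 ± 0.34 at day 2 (limma adjusted p = 0.00520), to 2.94 RPKM against 11.98 RPKM at 0h in the brown line and to 3.03 against 28.4 RPKM in 3T3-L1. This call ended without 3T3-L1 0h (-1.94, limma adjusted p = 0.0556) or with no cell line term (0.0526). Bdnf, a neurotrophin, fell by 2.58 ± 0.33 at day 7 (limma adjusted p = 0.00110). Star and Ret, at up to 2.52 and 2.82 RPKM in culture, differed by 0.46 and 0.42 at 2h and did not pass (limma adjusted p = 0.358 and 0.592); in the 0h to 4h libraries alone Star passed (0.0483).

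The rest of the nuclear receptor family was often highest late. Of 45 other receptors, 25 were tested, of which 16 in the brown line and 12 in 3T3-L1 had their highest level at day 7, against 29.7% and 25.4% of all genes tested. The NR4A genes had 0 of 3 there. At 2h, where 0.507% of all genes were called higher and 0.909% lower, 1 of the 25 rose. That was Vdr, the vitamin D receptor, which rose by 3.47 ± 0.34 (limma adjusted p = 0.0147). The call ended without either line's 0h or 2h library, at differences of 3.15 to 3.79 (limma adjusted p = 0.0561 to 0.205), and also with no filter on low values (0.0504) or no cell line term (0.224). Unlike the NR4A genes it was higher still at 4h, at 128 RPKM in the brown line and 394 RPKM in 3T3-L1, against 82.3 and 201 RPKM at 2h (the difference between these courses was not tested). At day 7, 13 of the 25 rose and 5 fell, with 14.9% of all genes called higher and 25.8% lower. With libraries scaled by their median of ratios, 2446 genes were called higher at day 7 and 2394 lower, against 1849 and 3202 as deposited.

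Genes with the most similar courses were ranked by Pearson's r of log2(RPKM + 1) over the 12 culture libraries, among 10345 genes that reached 5 RPKM. These libraries share the induction, the lines and the possible batch, so r is a description. For Nr4a1 the first 4 were Cxcl1 (r = 0.96), a neutrophil-attracting chemokine, Dusp5 (0.94), a nuclear ERK phosphatase, Il6 (0.93), a cytokine, and Fosl2 (0.93), an AP-1 subunit. For Nr4a2 they were Phlda1 (0.96), Spty2d1 (0.96), a histone chaperone, Csrnp1 (0.96) and Dusp5 (0.95). For Nr4a3 they were Il6 (0.95), Dusp5 (0.94), Csrnp1 (0.93) and Fosl2 (0.93). Dusp5 stood at 16.5, 65.5, 93.8, 23.3, 1.35 and 2.28 RPKM from 0h to day 7 in the brown line. In 3T3-L1 it stood at 14.7, 127.7, 127.0, 55.8, 4.72 and 1.29 RPKM. Ranked by Spearman's rho, 3, 2 and 2 of the 4 names were the same for Nr4a1, Nr4a2 and Nr4a3. Among themselves, Nr4a2 and Nr4a3 had the highest r (0.96), Nr4a1 and Nr4a3 had 0.91, and Nr4a1 and Nr4a2 had 0.89.

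In brown adipose tissue, with 1 library each from adults and embryos, the NR4A genes were below all culture libraries of 1h, 2h and 4h. Adult tissue ranked 7th of the 14 libraries for Nr4a2 and Nr4a3, above both lines at 0h, day 2 and day 7. Its interval overlapped that of brown 0h for Nr4a2 and that of 3T3-L1 0h for Nr4a3. For Nr4a1 adult tissue ranked 12th. Embryo tissue ranked 13th, 10th and 12th for Nr4a1, Nr4a2 and Nr4a3. Nr4a1 was at 7.02 RPKM (93 reads) in adult tissue and 5.70 RPKM (265 reads) in embryo tissue, a ratio of 1.23 whose 95% interval of 0.962 to 1.57 covers equality. Nr4a2 was at 5.56 RPKM (90 reads) in adults and 2.27 RPKM (129 reads) in embryos, a ratio of 2.45 (1.85 to 3.23). Nr4a3 was at 1.39 RPKM (14 reads) in adults and 0.113 RPKM (4 reads) in embryos, a ratio of 12.3 (3.86 to 51.2). These intervals cover counting error, and 1 library per stage gives no replicate check. By the rule of 2-fold with at least 2 RPKM, Nr4a2 was higher in adults and Nr4a1 was not, while Nr4a3 lay under that minimum. The rule counted 6.11% of all genes as higher and 34% as lower. The median ratio of all genes was 0.646 (log2 -0.63), and relative to it the NR4A ratios were 1.91, 3.79 and 19.0.

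By counting interval, 2 of the 3 NR4A genes lay wholly above a ratio of 1, where 13.7% of the 12095 genes at 1 RPKM or more in a tissue lay above and 61.6% below. Of 22 other immediate early genes, 0 lay wholly above 1 and 14 below, a share near that of all genes. Their median adult-to-embryo ratio was 0.485 over the 20 with more than 3 reads in a tissue. Relative to the median of all genes it was 0.752, with 7 of 20 above 1, among them Fosl2 at 1.47 and Ier3 at 2.96. The summed RPKM was 60.1 in adults and 140.2 in embryos. Of the 20 reported targets, 7 lay wholly above 1 (Ucp3, Fbp2, Eno3, Pgam2, Pygm, Slc2a4 and Ret) and 3 below (Ucp1, Slc18a2 and Spp1). The median ratio was 1.28 over the 14 with more than 3 reads in a tissue, and 1.98 relative to all genes. Among them Ucp3, a mitochondrial carrier, was at 55.7 RPKM in adults and 4.31 RPKM in embryos. Skeletal muscle markers were also higher in adults by interval in 5 of 10 cases and lower in 3. The part of muscle in the ratios of these targets was not tested.

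Sums of markers of other cell types also differed between the tissues as deposited. Skeletal muscle markers summed to 1253 RPKM in adults and 436 RPKM in embryos, with 5 of 10 higher and 3 lower in adults by their interval. Erythroid markers summed to 124 RPKM in adults and 1633 RPKM in embryos (5 of 5 lower), fibroblast markers to 73.3 and 568 RPKM (1 higher and 4 lower of 6), and endothelial markers to 126 and 241 RPKM (4 of 5 lower). Macrophage markers summed to 28.2 and 36.4 RPKM, T cell markers to 0.728 and 0.583 RPKM with Cd3e and Cd3d at 0 in adults, and neuronal markers to 0.597 and 1.28 RPKM with Snap25, Tubb3 and Elavl4 at 0 in adults. Adipocyte markers summed to 8032 and 13065 RPKM and brown adipocyte markers to 2554 and 3927 RPKM, with Ucp1 at 1015 RPKM in adults and 1194 RPKM in embryos. By interval, 13.7% of all genes lay above 1 and 61.6% below. Relative to the median of all genes, the median ratio was 2.90 for muscle, 0.154 for erythroid, 0.449 for fibroblast and 0.907 for endothelial markers. It was 1.21 for macrophage, 1.08 for adipocyte and 1.84 for brown adipocyte markers. Most T cell and neuronal markers had 3 reads or fewer in both tissues. The part of these cell types in the NR4A values was not tested.

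**Figure D5:**
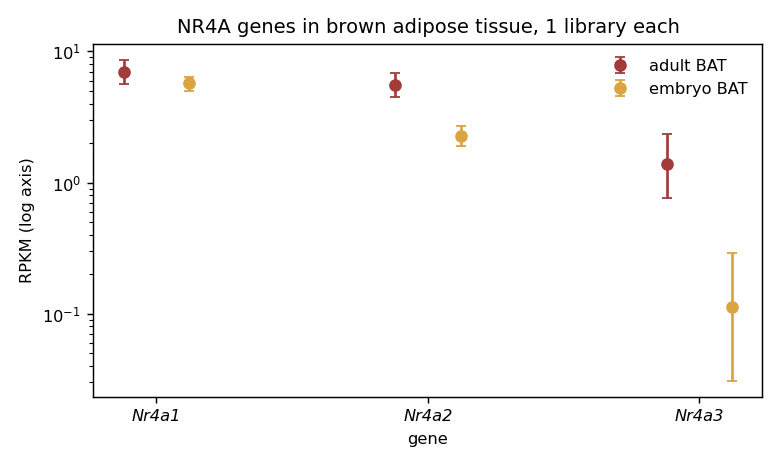
RPKM of Nr4a1, Nr4a2 and Nr4a3 on a log axis in brown adipose tissue of adults (left of each pair) and embryos (right), 1 library each, with 95% counting intervals. The intervals overlap for Nr4a1, at 7.02 and 5.70 RPKM, and are apart for Nr4a2 and Nr4a3.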

How the data were processed

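Per the labels' protocols, RNA came from a Trizol extraction with Dynabeads mRNA purification and standard Illumina library preparation. The authors' culture files hold RPKM, per the file headers, with 2 decimals. Tissue files hold a read count and an RPKM per transcript, both deposited by the authors. The submitters' processing notes name CASAVA 1.8.2 and mm9 without a role. How reads were aligned, counted, filtered and assigned to strands is not given in the sources used here. The GRCm38 annotation differs from mm9 and gave gene models and sequences, matched by accession or symbol (3 of 3).

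Of 29082 transcripts, the one with the highest mean RPKM over the 14 libraries was kept per symbol. Accessions restored 48 of 49 symbols that the files give as numbers. Transcript lengths came from count over RPKM in tissue. With them, low RPKM values in culture were whole reads (100% of 74 to 107 values per library within 0.2), which gave depth and read numbers. RPKM is not a count, so the test was limma (3.58.1, trend) on log2(RPKM + 1), which understates changes of low genes, in genes that reached 1 RPKM in 2 or more culture libraries. The model was time plus cell line, with Benjamini-Hochberg adjustment over 12428 genes within each contrast and a threshold of 0.05. p-values measure the spread between these 2 lines. The script was tested on simulated data.

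With 1 library per group no replicate numbers pair samples; the cell line is the block. Ratios within a line or between tissues have no test, only 95% intervals from reads, with counts of 0 set to 3 reads and, between tissues, no ratio where both have 3 reads or fewer. Alternatives were edgeR (4.0.16) on recovered reads, a pseudocount of 0.1, no filter, median-of-ratios and quantile scaling, no cell line term, the 0h to 4h libraries alone, the other Nr4a2 transcript and leaving out each library. Their use on the named list genes was added after seeing the data. The NR4A genes and all gene lists were chosen with earlier results of these data known. The 4 genes named per list are those with the largest change past the threshold at 2h, or else the largest change. Eno3 at day 2, Bdnf at day 7, Rxra at day 2, Vdr, Crem and Sik2 at 4h, Fosl2 and Ier3 in tissue, Ucp1, Ucp3 and the 6 genes still high at 4h were singled out after their values were seen.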

Additional observations from a re-analysis of the deposited data

Results flagged for a closer look

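Nr4a2 moved in opposite directions between 1h and 2h. The difference of log2(RPKM + 1) was 0.72 in the brown line (55.4 RPKM at 2h against 33.2 RPKM at 1h) and -0.08 in 3T3-L1 (35.8 RPKM at 2h against 37.8 RPKM at 1h). With 1 library per line and time, the difference was not tested, and the 3T3-L1 step changes sign when libraries are scaled by their median of ratios.

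Nr4a1 moved in opposite directions between day 2 and day 7. The difference was 1.34 in the brown line (8.74 RPKM at day 7 against 2.86 RPKM at day 2) and -1.24 in 3T3-L1 (17.4 RPKM against 42.5 RPKM). The difference between the lines was not tested, and both brown libraries are marked as duplicates of samples in another series.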

How the results depend on the processing

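The cell line is the block that pairs the times, and no replicate number pairs samples beyond this, since each group has 1 library. The causes of the changes below were not tested. With no cell line term (no replicate block), these calls ended: Nr4a2 at 1h (2.94, limma adjusted p = 0.152), 4h (1.84, 0.138) and day 2 (-1.09, 0.114), Nr4a3 at 1h (4.03, 0.230) and 4h (2.89, 0.138), and Nr4a1 from 4h to day 2 (-3.21, 0.155). With no filter on low values, they ended for Nr4a2 and Nr4a3 at 1h (2.94 and 4.03, limma adjusted p = 0.0833 and 0.0852), for Nr4a1 from 4h to day 2 (-3.21, 0.0742) and between the lines for Nr4a1 and Nr4a3 (-1.27 and -0.63, 0.0902 and 0.0677). The 0h to 4h libraries alone let Nr4a1 pass at 1h, 2h and 4h (4.37, 3.56 and 1.76), and all 3 genes pass from 2h to 4h (-1.81, -1.41 and -2.34). That fit called 24 genes higher at 1h. For Nr4a3 at day 7, a pseudocount of 0.1 gave -2.43 and edgeR -3.34, and from day 2 to day 7 they gave -1.51 (limma adjusted p = 0.0144) and -2.39 (edgeR adjusted p = 0.00596). edgeR also gave Nr4a3 -0.95 at day 2 (adjusted p = 0.0393) and Nr4a1 -0.24 from day 2 to day 7.

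Scaling by the median of ratios put the peak over 0h of Nr4a1 at 24.7 in the brown line and 21.1 in 3T3-L1, of Nr4a2 at 13.4 in the brown line and of Nr4a3 at 106.5 in 3T3-L1. On RPKM + 1, the peak ratio was 22.7 for Nr4a1 in the brown line, 9.96 and 9.67 for Nr4a2 in the brown line and 3T3-L1, and 30.2 and 46.4 for Nr4a3. Between tissues the rescaled ratio was 1.91 for Nr4a1 and 3.79 for Nr4a2.

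Leaving out 1 library at a time, the differences of Nr4a1 ranged over 4.07 to 4.68 at 1h, 2.81 to 4.32 at 2h, 1.61 to 1.90 at 4h, -2.79 to -0.12 at day 2 and -1.62 to -1.20 at day 7. They ranged over -4.55 to -1.88 from 4h to day 2, -1.29 to 1.38 from day 2 to day 7 and -1.52 to -0.83 between the lines. Those of Nr4a2 ranged over 2.64 to 3.23 at 1h, 3.08 to 3.44 at 2h, 1.62 to 2.06 at 4h, -1.21 to -0.98 at day 2, -1.29 to -1.05 at day 7, -0.20 to 0.04 from day 2 to day 7 and 0.26 to 0.42 between the lines. Those of Nr4a3 ranged over 3.65 to 4.41 at 1h, 4.98 to 5.47 at 2h, 2.70 to 3.07 at 4h, -1.12 to -0.45 at day 7 and -0.75 to -0.50 between the lines. The number of genes called also moved. At 1h 5 were called higher, with 0 to 8 when 1 library was left out. At 2h 63 were called higher, with 0 to 140 when 1 library was left out and 4 to 358 under the other alternatives. At 4h it was 116, with 0 to 290 and 2 to 870. Depth limits Nr4a3 most, with 4 reads in embryo tissue and about 6 and 9 at day 7.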
